A study of Mus musculus with 9 samples.

Results

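The genes described here were 42 genes of glucose breakdown, lactate transport, pyruvate entry into mitochondria and the response to low oxygen, chosen by name for their known roles from the 18138 genes of the count table. Earlier results of these data were known when they were chosen. All 42 were in the table and all had enough counts to be tested. RNA was sequenced from mouse brain in 9 libraries, 3 in each of 3 groups. Control mice carried no treatment named in the labels, MCAO mice had middle cerebral artery occlusion, a surgical model of ischaemic stroke with reperfusion in the study's title, and hypidone mice received hypidone hydrochloride (YL-0919), an experimental antidepressant that acts on serotonin uptake, at 5 mg/kg for 7 days after the same surgery. The sources used here do not give the strain, age, brain region, any sham surgery, the vehicle or the time of sampling. Libraries are named by group and by the number in their title (control 4, 5 and 6, MCAO 4, 5 and 6, hypidone 2, 7 and 8). Whether the samples of a group are separate animals is not stated, so a p-value here reflects only how much these samples varied, and that variation may be technical.

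Glycolysis splits glucose into pyruvate, and pyruvate is either reduced to lactate by lactate dehydrogenase or carried into mitochondria and oxidised by the pyruvate dehydrogenase complex, which pyruvate dehydrogenase kinases switch off. In brain, lactate moves between glia, vessels and neurons through monocarboxylate transporters, of which the product of Slc16a7 is the main neuronal form. When oxygen is short, the hypoxia-inducible factors, whose alpha subunits are otherwise marked for destruction by the prolyl hydroxylases and the VHL protein, raise the transcription of many glycolytic genes, of lactate dehydrogenase A and of the vessel growth factor gene Vegfa.

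Libraries held 32075682 to 37325027 counts, and the 42 genes had between 57 and 78619 counts in a library. MCAO libraries stood apart, and also differed among themselves. A principal component with 47.3% of the variance of log2 CPM (counts relative to library size, scaled by TMM) placed MCAO 5 at 103, MCAO 6 at 64.4 and MCAO 4 at 11.0, against -42.4 to -13.0 for the control and hypidone libraries. The defining neuronal genes were present in every library. Their summed level was 8742 to 13011 CPM in control, 10672, 5664 and 7683 CPM in MCAO 4, 5 and 6, and 11267 to 12551 CPM in hypidone, and 1 of the 8 fell with MCAO. Reactive astrocyte markers, of which 7 of 7 rose with MCAO, summed to 183 to 786 CPM in control, 733, 4679 and 4526 CPM in MCAO 4, 5 and 6, and 381 to 639 CPM in hypidone. Macrophage markers, of which 5 of 8 rose, summed to 38.7 to 42.4 CPM in control, 82.9, 6953 and 566 CPM in MCAO, and 61.1 to 160 CPM in hypidone, with the defining marker Ccr2 at 0 in some libraries. Microglial markers, of which 5 of 8 rose, summed to 529 to 575 CPM in control, 700, 2927 and 1358 CPM in MCAO, and 586 to 700 CPM in hypidone. Endothelial markers, of which 3 of 8 rose, summed to 132 to 234 CPM in control, 166, 575 and 285 CPM in MCAO, and 188 to 243 CPM in hypidone. Red cell markers, of which 5 of 5 were higher in hypidone than in MCAO, summed to 41.9 to 72.7 CPM in control, 7.11, 28.0 and 4.31 CPM in MCAO, and 71.3 to 187 CPM in hypidone. Resting astrocyte markers, of which 0 of 7 passed, summed to 4425 to 6016 CPM in all libraries. Control 5 had the highest sums of choroid plexus markers (193 CPM against at most 11.4 CPM) and hippocampal markers (903 CPM against at most 355 CPM). It also had the highest sum of oligodendrocyte markers (7112 CPM against at most 4496 CPM), of which 1 of 6 fell with MCAO. MCAO 5 had the highest sum of pericyte and smooth muscle markers (494 CPM against at most 221 CPM), of which 1 of 7 rose. The part of these cell markers in the results below was not tested.

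The comparison of MCAO with control asks what the surgery changed. The inhibitory kinase gene Pdk4 rose 3.37-fold, the oxygen-sensing genes Epas1 and Hif1a rose 1.51-fold and 1.31-fold, and the monocarboxylate transporter gene Slc16a7, Vegfa, the lactate dehydrogenase gene Ldha, the phosphofructokinase gene Pfkl and the pyruvate dehydrogenase gene Pdhb fell 3.60-fold, 2.06-fold, 1.72-fold, 1.61-fold and 1.44-fold. These were 8 of the 42 genes (19.0%), called by edgeR's quasi-likelihood test where p adjusted by Benjamini-Hochberg over all 14756 tested genes was under 0.05. Among all tested genes 20.4% were called, 10.6% as higher and 9.81% as lower, against 3 higher and 5 lower of the 42. The share of called genes in the list was therefore close to that of all genes. Group ranges were separate for 13 of the 42 genes (31.0%), where they did not overlap for 33.5% of all genes. The median log2 fold change of the 42 genes was -0.07, where that of all genes was 0.01. Fewer cells of a type and less RNA per cell cannot be told apart in these whole-tissue samples.

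Hypidone was compared with MCAO to ask how the drug changed tissue after the same surgery. Ldha, Slc16a7, Pdhb and Vegfa were higher with hypidone and Pdk4, Hif1a and Epas1 were lower, which were 7 of the 42 genes, or 16.7%. Among all genes 16.5% were called, 8.23% as higher and 8.28% as lower, against 4 higher and 3 lower of the 42. Groups did not overlap for 14 genes (33.3%), where 39.9% of all genes did not. The median log2 fold change of the list was 0.02, where that of all genes was -0.04. This comparison and the first share the MCAO libraries, so a deviation of those libraries enters both with opposite signs, and the values are given side by side below.

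The counts moved with single libraries, and so did those of all tested genes. For MCAO against control, 1 gene was higher without control 4 or without control 6 and 7 were higher without MCAO 4, and 3 were lower without control 6. Of all genes, 1567 were higher and 1448 lower in the main fit. These became 543 and 700 without control 4, 480 and 613 without control 6, and 2357 and 1918 without MCAO 4. For hypidone against MCAO, 2 genes were higher without hypidone 7 or without hypidone 8, 6 were lower without MCAO 4, and 1 was lower without MCAO 6 or without any of the hypidone libraries. Of all genes, 1215 were higher and 1222 lower in the main fit. These became 1752 and 2123 without MCAO 4 and 388 and 341 without MCAO 6. Without hypidone 2, 7 or 8 they became 346 and 250, 350 and 234, and 315 and 233. Ldha, Slc16a7 and Pdk4 kept their calls in both comparisons whichever library was left out. A fit of only the control and MCAO libraries also kept these 3 and ended the calls of the other 5, with adjusted p between 0.0506 and 0.115. Of all 14489 genes tested in that fit, 345 were higher and 337 lower.

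**Figure D1:**
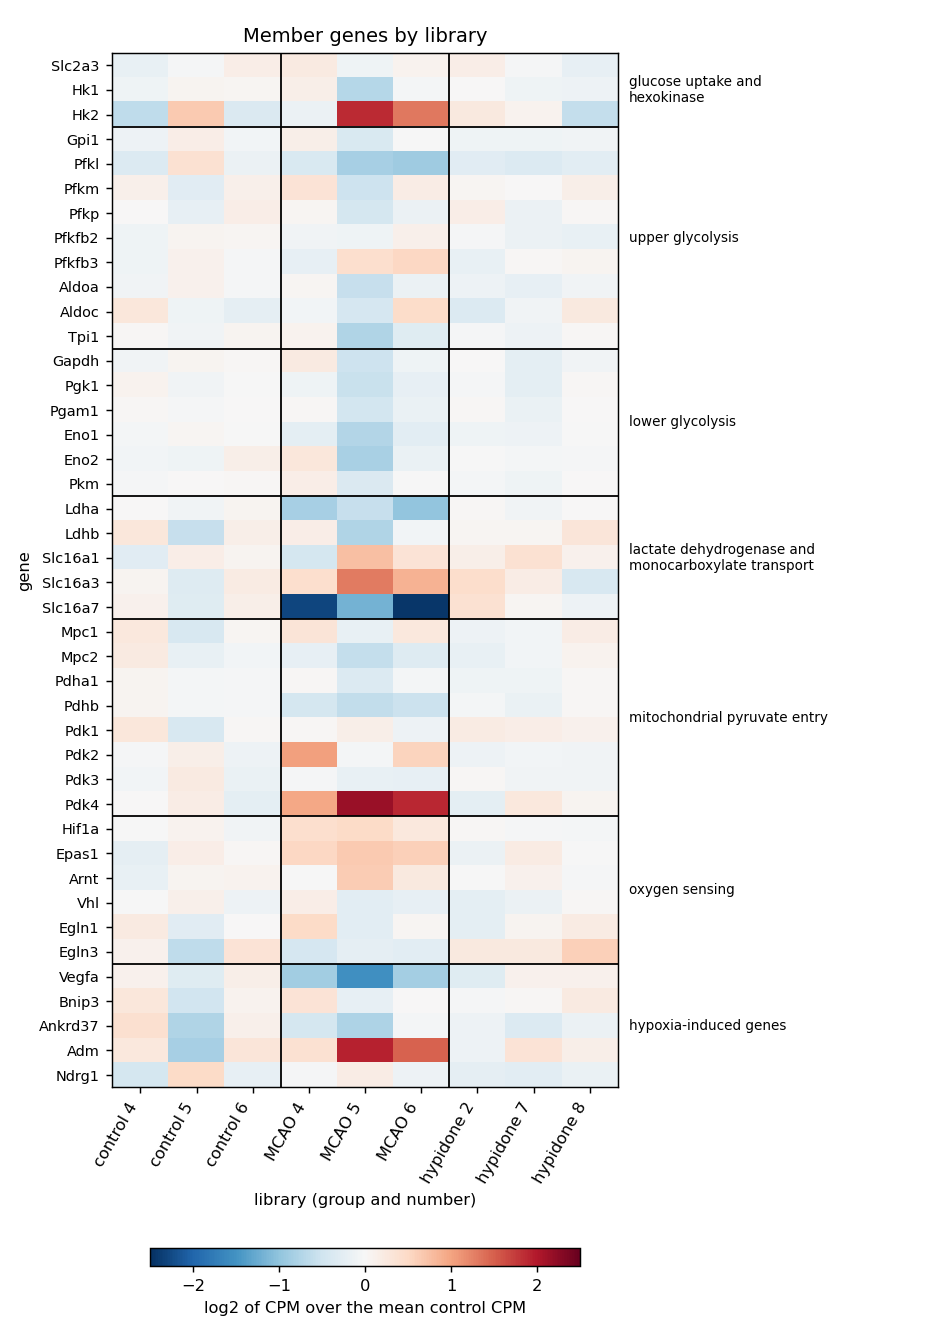
Colour gives the log2 of each library's CPM over the mean CPM of the 3 control libraries, for the 42 genes in rows grouped by role and the 9 libraries in columns grouped by treatment. The MCAO columns hold the strongest colours, with Slc16a7 blue and Pdk4 red in all 3, and MCAO 5 was the lowest of the 9 libraries in 20 of the 42 rows.

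**Figure D2:**
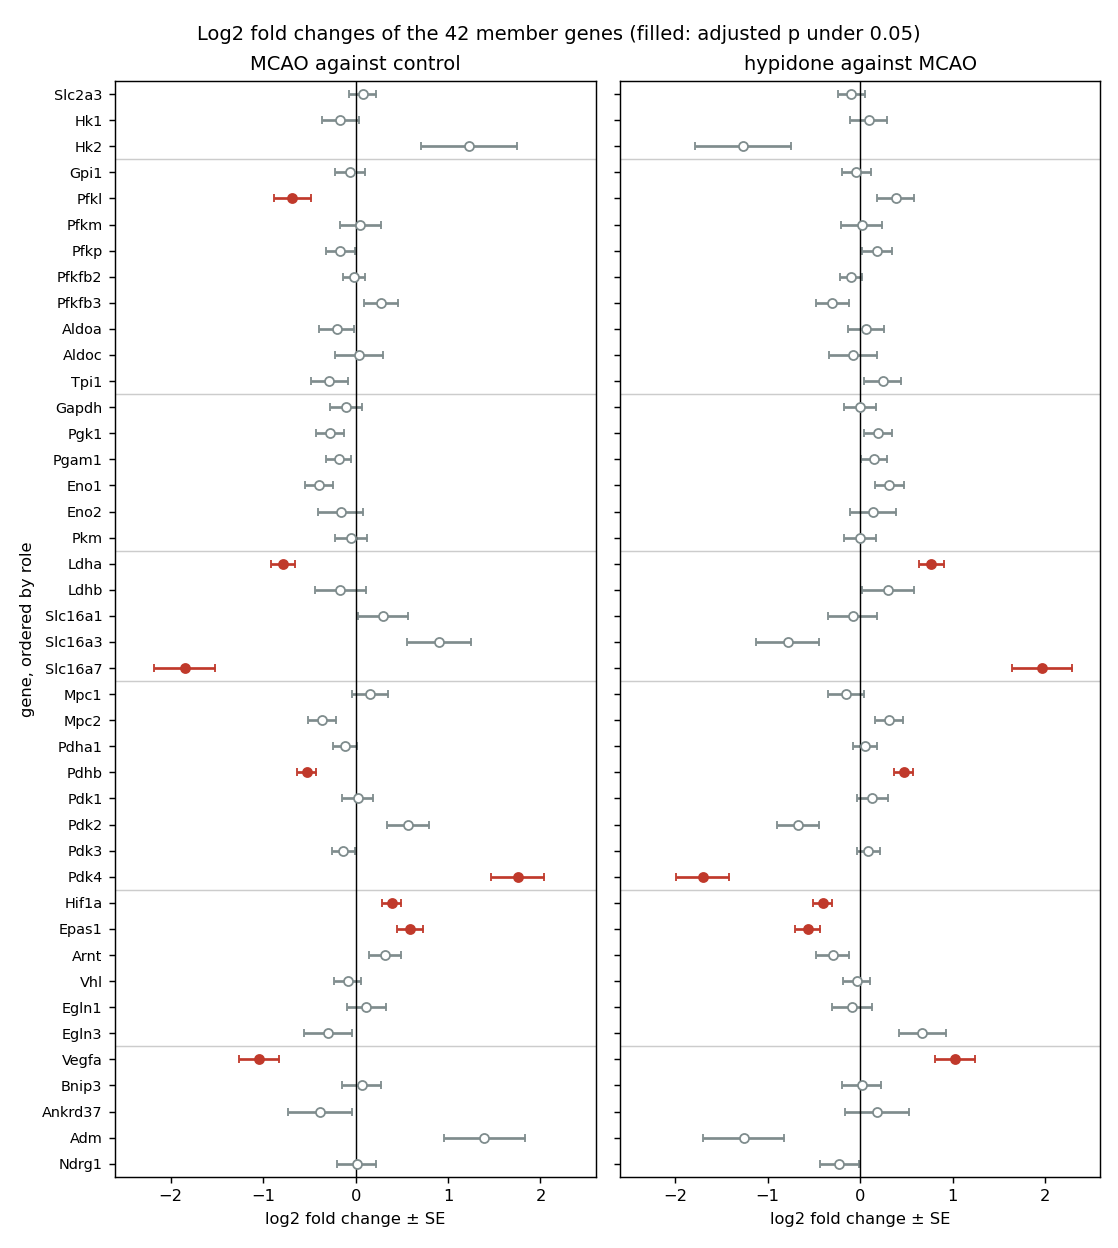
Points give the log2 fold change of each of the 42 genes with its SE as a bar, for MCAO against control on the left and hypidone against MCAO on the right, and filled points passed an adjusted p of 0.05. The filled points are 8 genes on the left and 7 on the right, and the MCAO libraries are shared by the panels.

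Promoter windows of 4 of the called genes are shown because Ldha, Vegfa and Pdhb fell with MCAO and Pdk4 rose, and because the hypoxia-inducible factors bind a short core in promoters of some of their targets. Each is RefSeq sequence on GRCm38.p6, from 250 bases before to 50 bases after a transcript start, written 5′ to 3′ on the gene's strand, with capitals for each match to the core ACGTG or GCGTG on either strand. The windows are chr7:46845554-46845853 on the plus strand for Ldha, chr17:46032328-46032627 on the minus strand for Vegfa, chr14:8172943-8173242 on the minus strand for Pdhb and chr6:5496229-5496528 on the minus strand for Pdk4, each the most upstream where a gene has several.
Ldha: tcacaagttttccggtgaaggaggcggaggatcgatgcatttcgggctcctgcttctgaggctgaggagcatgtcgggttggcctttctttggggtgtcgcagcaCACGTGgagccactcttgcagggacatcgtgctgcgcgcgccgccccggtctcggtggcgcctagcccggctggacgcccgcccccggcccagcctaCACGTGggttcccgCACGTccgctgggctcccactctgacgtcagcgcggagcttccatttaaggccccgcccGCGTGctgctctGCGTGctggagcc
Vegfa: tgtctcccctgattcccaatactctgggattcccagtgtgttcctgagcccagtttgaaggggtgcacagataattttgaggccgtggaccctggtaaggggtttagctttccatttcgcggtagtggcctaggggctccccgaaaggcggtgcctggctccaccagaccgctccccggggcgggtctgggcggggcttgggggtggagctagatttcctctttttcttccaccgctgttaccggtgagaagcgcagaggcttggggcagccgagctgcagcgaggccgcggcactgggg
Pdhb: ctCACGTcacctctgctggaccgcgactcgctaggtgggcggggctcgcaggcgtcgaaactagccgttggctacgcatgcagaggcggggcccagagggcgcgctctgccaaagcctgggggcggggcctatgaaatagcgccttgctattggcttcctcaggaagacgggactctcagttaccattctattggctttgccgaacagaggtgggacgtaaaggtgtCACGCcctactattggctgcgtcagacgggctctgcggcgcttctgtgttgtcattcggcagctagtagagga
Pdk4: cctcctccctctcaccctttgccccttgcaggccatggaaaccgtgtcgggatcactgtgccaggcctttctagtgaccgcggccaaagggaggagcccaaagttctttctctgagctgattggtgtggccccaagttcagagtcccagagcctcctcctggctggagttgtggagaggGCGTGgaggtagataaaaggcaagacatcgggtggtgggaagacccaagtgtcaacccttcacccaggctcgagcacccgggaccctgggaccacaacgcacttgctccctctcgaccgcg
The Ldha window held 5 capital runs, of which 2 are the palindrome CACGTG, which contains ACGTG on each strand. The Pdhb window held 2 runs, the Pdk4 window 1 and this Vegfa window 0. A second window each of Vegfa (chr17:46025114-46025413) and Ldha (chr7:46846832-46847131), not printed, held 2 matches. Windows of the called genes Hif1a, which rose, and Pfkl, which fell, are also not printed. That of Hif1a (chr12:73907617-73907916) held 3 matches in 2 runs, and that of Pfkl (chr10:78009758-78010057) held 1. RefSeq windows were found for 38 of the 42 genes, all but Slc2a3, Slc16a7, Epas1 and Ndrg1. Of their 56 windows, 78.6% held either core, where 43.8% of all 32851 windows held it (19.6% held ACGTG and 32.4% GCGTG). The median GC content was 62.0% in the windows of the listed genes and 52.7% in all windows. GTAAACA, a motif of FOXO factors, was in 1 of the 56 windows, that of Aldoc, where 3.65% of all windows held it. These matches describe letters in a window and not bound sites.

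The steps from glucose uptake to pyruvate showed few changes that passed the test. Of 18 genes, Pfkl fell and none rose with MCAO, 17 did not pass, and none passed for hypidone against MCAO. The share called was 5.56% with MCAO, where 20.4% of all genes passed, and 0% for hypidone against MCAO, where 16.5% of all genes passed. Pfkl encodes the liver form of phosphofructokinase, the committing enzyme of glycolysis (chr10:77986947-78010083, minus strand, mm10). Its level was 152, 251 and 173 CPM in control 4, 5 and 6, 147, 107 and 104 CPM in MCAO 4, 5 and 6, and 158, 151 and 159 CPM in hypidone 2, 7 and 8. All MCAO libraries lay below all controls, but MCAO 4 was close to control 4, and control 5 stood above the rest. Pfkl had a log2 fold change of -0.68 ± 0.20 (SE) with an adjusted p of 0.0426. Without control 5 it was -0.45 (adjusted p = 0.0874), and the call was also lost without control 6, MCAO 5, MCAO 6 or any hypidone library, with adjusted p between 0.0708 and 0.148. With hypidone Pfkl differed from MCAO by 0.39 ± 0.20 with an adjusted p of 0.205.

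Among uptake and first-step genes, Hk2, which encodes an inducible hexokinase bound to mitochondria, had the lowest p without passing. Its level was 2.87, 7.01 and 3.49 CPM in control, 4.01, 16.2 and 11.1 CPM in MCAO 4, 5 and 6, and 5.30, 4.72 and 2.96 CPM in hypidone. MCAO 5 and MCAO 6 were above every control and MCAO 4 was among them. The log2 fold change was 1.23 ± 0.52 with MCAO (adjusted p = 0.121) and -1.27 ± 0.52 for hypidone against MCAO (adjusted p = 0.119), and without MCAO 4 it passed in both, at 1.61 (adjusted p = 0.0233) and -1.65 (adjusted p = 0.0238). Hk1, the main hexokinase gene of brain, and Slc2a3, which encodes the neuronal glucose transporter, differed by -0.16 ± 0.20 and 0.08 ± 0.15 with MCAO. Levels per length put Hk1 at 84.5 FPKM and Hk2 at 0.738 FPKM in control.

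The other genes of upper glycolysis and those of lower glycolysis kept to a narrow band. With MCAO the log2 fold changes of the 8 upper genes other than Pfkl ran from -0.28 for Tpi1, the triose phosphate isomerase gene, to 0.27 for Pfkfb3, whose product makes the activator of phosphofructokinase. Without MCAO 4 these ends passed, at -0.51 (adjusted p = 0.0472) and 0.46 (adjusted p = 0.0294). For hypidone against MCAO all genes from uptake to pyruvate but Hk2 ran from -0.30 for Pfkfb3, which passed without MCAO 4 at -0.48 (adjusted p = 0.0266), to 0.39 for Pfkl. The 6 genes of lower glycolysis all had a negative value, from -0.05 for the pyruvate kinase gene Pkm to -0.40 for the enolase gene Eno1, and none passed. Without MCAO 5, 3 of the 6 were negative, and their median log2 fold change went from -0.17 to 0.02. Eno1 was at 693, 739 and 714 CPM in control, 604, 431 and 595 CPM in MCAO and 666, 655 and 711 CPM in hypidone. Its MCAO values lay below all others, with a log2 fold change of -0.40 ± 0.16 (adjusted p = 0.0989) and 0.32 ± 0.16 for hypidone against MCAO (adjusted p = 0.179). With MCAO, Eno1 passed when tested with DESeq2 (-0.39, adjusted p = 0.0494) and with limma voom (-0.27, adjusted p = 0.0310).

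MCAO 5 was the lowest of the 9 libraries for 13 of the 18 genes from uptake to pyruvate, where it was the lowest for 20.9% of all genes tested. MCAO 4 was the highest for 7 of the 18, where it was the highest for 16.8% of all genes. The MCAO libraries thus lay on different sides of the controls for several genes: Tpi1, Gapdh and Eno2 were above every control in MCAO 4 and below every control in MCAO 5 and MCAO 6. The median log2 fold change of the 18 genes with MCAO was -0.13, with 13 negative, and 0.07, with 7 negative, without MCAO 5. Between hypidone and MCAO it was 0.04, and -0.14 without MCAO 5. The summed neuronal markers were lowest, and the summed macrophage markers highest, in the same library.

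Levels per length in control ordered the genes from uptake to pyruvate from the aldolase gene Aldoa at 846 FPKM, Tpi1 at 523 FPKM and Aldoc at 423 FPKM down to Pfkfb3 at 6.18 FPKM, Pfkfb2 at 3.03 FPKM and Hk2 at 0.738 FPKM. Gapdh was at 89.3 FPKM. The annotation names 2 pseudogenes of Gapdh, 6 of Tpi1, 3 of Pgk1 and 2 each of Aldoa, Pgam1 and Ldha, and the sources used here do not say how reads shared with such copies were counted, so the levels of these genes are uncertain.

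Lactate handling held the gene with the lowest MCAO level relative to control. Slc16a7 encodes the monocarboxylate transporter MCT2, which carries lactate and ketone bodies into neurons (chr10:125219270-125389465, minus strand). Its level was 47.1, 35.7 and 48.5 CPM in control 4, 5 and 6, 8.93, 19.4 and 8.07 CPM in MCAO 4, 5 and 6, and 57.1, 45.1 and 40.2 CPM in hypidone 2, 7 and 8. Every MCAO library was below every other library, and the control and hypidone ranges overlapped. The means were 43.8 ± 7.02, 12.1 ± 6.31 and 47.5 ± 8.67 CPM (SD, n = 3), with a log2 fold change of -1.85 ± 0.33 with MCAO (adjusted p = 0.00841) and 1.97 ± 0.33 for hypidone against MCAO (adjusted p = 0.00841). MCAO 4 was about as low as MCAO 6. Their summed neuronal markers were 10672 and 7683 CPM, against 13011, 8742 and 12828 CPM in control 4, 5 and 6. The part of neuronal content in the Slc16a7 levels was not tested.

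Ldha, on chromosome 7 (chr7:46841475-46855627, plus strand), encodes the subunit of lactate dehydrogenase that favours making lactate, and its window is the first printed above. It stood at 364, 337 and 380 CPM in control, 203, 242 and 182 CPM in MCAO 4, 5 and 6, and 367, 337 and 364 CPM in hypidone. The MCAO libraries did not overlap with either other group, and MCAO 4 was again not nearer to the controls than MCAO 5. Its log2 fold change was -0.79 ± 0.13 with MCAO (adjusted p = 0.00734) and 0.77 ± 0.13 for hypidone against MCAO (adjusted p = 0.00956). Ldhb, the subunit gene that prevails in neurons, was at 407 to 771 CPM in MCAO and 459 to 838 CPM in control, with a log2 fold change of -0.16 ± 0.28. The share of Ldha in the summed FPKM of Ldha and Ldhb was 11.9% ± 2.93 in control, 8.35% ± 3.73 in MCAO and 10.4% ± 0.876 in hypidone (SD, n = 3), and its groups overlapped (exact permutation p = 0.3 and 0.4, two-sided).

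The transporter genes Slc16a1 and Slc16a3, which encode the forms MCT1 of vessels and glia and MCT4 of glycolytic cells, did not pass. Slc16a1 was at 27.0, 37.1 and 34.6 CPM in control and 24.1, 55.4 and 41.7 CPM in MCAO, with MCAO 4 below and the other MCAO libraries above the controls. Slc16a3 was at 1.77 to 2.55 CPM in control and 2.96, 5.42 and 4.04 CPM in MCAO, all above the controls, with a log2 fold change of 0.90 ± 0.35 (adjusted p = 0.0930) that passed without MCAO 4, at 1.09 (adjusted p = 0.0468). The log2 fold change of Slc16a1 was 0.30 with MCAO (adjusted p = 0.453). Slc16a7 gave 30.9% ± 5.85 of the summed FPKM of the 3 genes in control, 8.82% ± 2.54 in MCAO and 29.4% ± 4.11 in hypidone (SD, n = 3). Slc16a1 gave 57.3%, 70.9% and 62.3% in control, 77.4%, 79.8% and 83.7% in MCAO, and 59.6%, 68.6% and 67.9% in hypidone. MCAO shares of Slc16a1 were above all others, with an exact two-sided permutation p of 0.1 in each comparison, the smallest that 3 libraries against 3 can give, so these shares could not pass a threshold of 0.05. The 3 shares add up to the whole, so a lower Slc16a7 share goes with higher shares of the others.

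**Figure D3:**
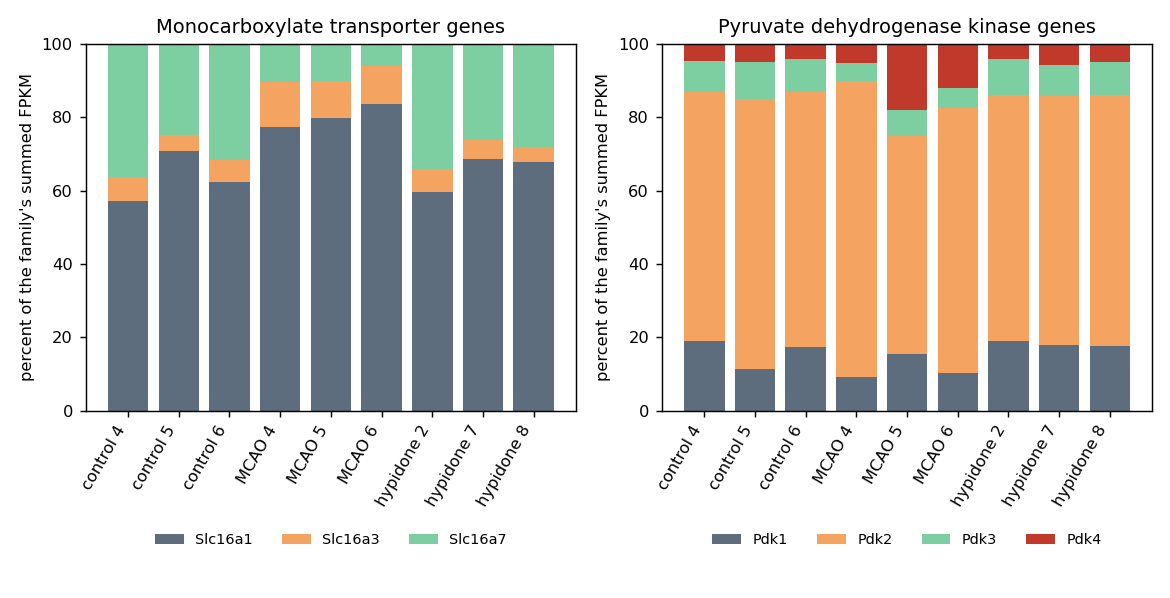
Stacked bars give each gene's percent of its family's summed FPKM in the 9 libraries, for 3 monocarboxylate transporter genes on the left and 4 pyruvate dehydrogenase kinase genes on the right. The Slc16a7 part is smallest in the 3 MCAO libraries (mean 8.82%), and the Pdk4 part is largest in MCAO 5 (17.9%) and MCAO 6 (11.9%).

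At the entry of pyruvate into mitochondria, 2 of 8 genes passed with MCAO, an inhibitor gene that rose and an enzyme gene that fell. This was 25%, where 20.4% of all genes passed. The 8 genes had a median log2 fold change of -0.04, with 4 negative. For hypidone against MCAO 25% also passed, where 16.5% of all genes did. Pdk4 encodes a kinase that phosphorylates and so inactivates pyruvate dehydrogenase, and is known for its induction by fasting and glucocorticoids (chr6:5483351-5496309, minus strand). It was at 11.6, 13.1 and 9.74 CPM in control, 22.5, 51.1 and 42.4 CPM in MCAO 4, 5 and 6, and 9.70, 13.8 and 12.1 CPM in hypidone. All MCAO libraries were above all others, and MCAO 4 was the lowest of them. Pdk4 had a log2 fold change of 1.75 ± 0.29 with MCAO (adjusted p = 0.00680) and -1.70 ± 0.29 for hypidone against MCAO (adjusted p = 0.00889).

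Pdhb encodes the beta subunit of the first enzyme of the pyruvate dehydrogenase complex (chr14:8165996-8173025, minus strand). It was at 151, 139 and 141 CPM in control, 106, 93.1 and 99.6 CPM in MCAO and 139, 129 and 146 CPM in hypidone, with no overlap of MCAO with either group. The log2 fold change was -0.53 ± 0.10 with MCAO (adjusted p = 0.0110) and 0.47 ± 0.10 for hypidone against MCAO (adjusted p = 0.0187), the latter call lost without MCAO 6 or any hypidone library (adjusted p between 0.0578 and 0.0839). Pdha1, the gene of the alpha subunit of the same enzyme, differed by -0.11 ± 0.13 with MCAO and did not pass.

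The other kinase and carrier genes did not pass. Pdk2, the most abundant kinase gene of the family at 50.4 FPKM in control, was at 130, 146 and 122 CPM in control, 268, 128 and 195 CPM in MCAO 4, 5 and 6, and 121 to 126 CPM in hypidone. MCAO 4 was the highest there and MCAO 5 lay within the controls, the reverse of their order for Pdk4. For Pdk2 the log2 fold change was 0.57 ± 0.23 with MCAO (adjusted p = 0.103), and -0.67 ± 0.23 for hypidone against MCAO (adjusted p = 0.0727). Without MCAO 5 it passed in both, at 0.82 (adjusted p = 0.00792) and -0.92 (adjusted p = 0.00588). Mpc2, which encodes a subunit of the mitochondrial pyruvate carrier, was at 67.3 to 89.8 CPM in control and 51.1 to 66.7 CPM in MCAO, with a log2 fold change of -0.36 ± 0.15 (adjusted p = 0.111). Mpc1, Pdk1 and Pdk3 had log2 fold changes between -0.13 and 0.16. Pdk4 gave 4.55%, 4.97% and 4.21% of the summed FPKM of the 4 kinase genes in control, 5.09%, 17.9% and 11.9% in MCAO, and 4.05%, 5.60% and 4.99% in hypidone. The MCAO shares were above the control shares (exact permutation p = 0.1, two-sided, the smallest possible), though MCAO 4 only by a little and below hypidone 7, and the mean difference of 7.06 percentage points was 3.91 without MCAO 5.

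**Figure D4:**
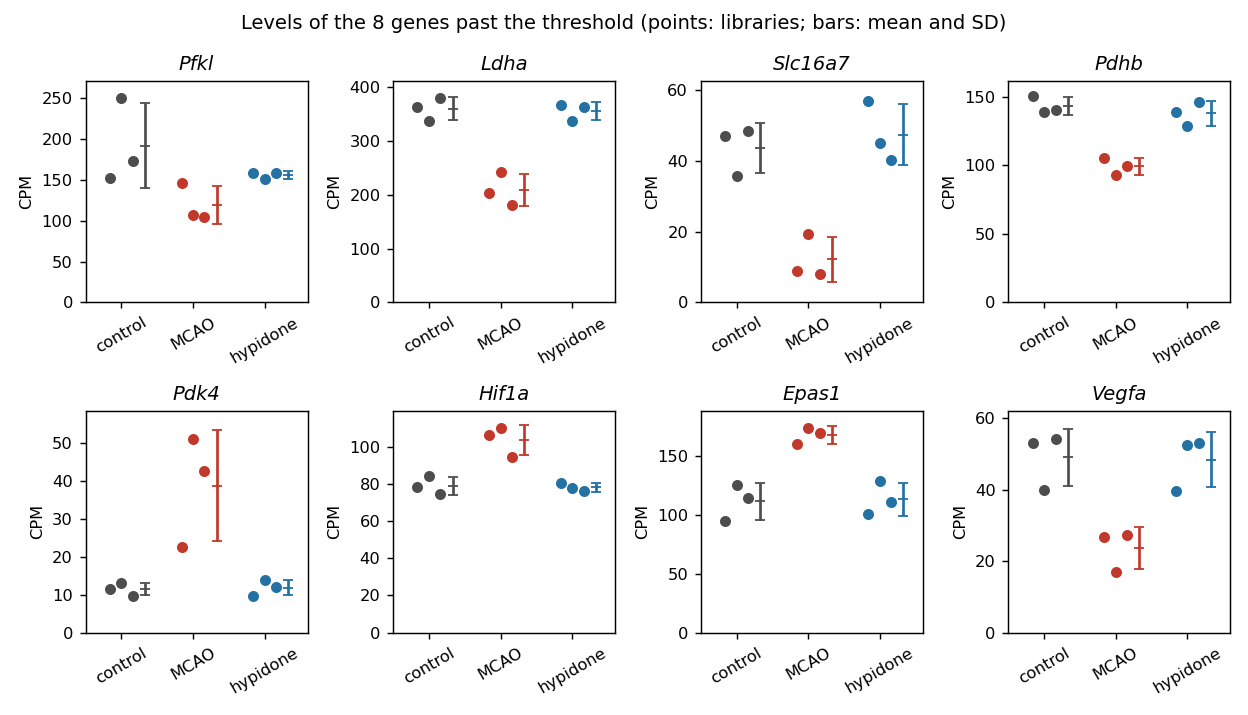
Points give CPM in each of the 9 libraries for the 8 genes that passed in either comparison, in the order of their libraries' numbers, with the mean and SD (n = 3) of each group as a bar beside them, on axes that start at 0. The MCAO points stand apart from the other groups in all panels but that of Pfkl, where MCAO 4 (147 CPM) is close to hypidone 7 (151 CPM).

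Of the 6 oxygen-sensing genes, the 2 genes of the alpha subunits of the hypoxia-inducible factors rose with MCAO. This was 33.3%, where 20.4% of all genes passed. For hypidone against MCAO 33.3% also passed, where 16.5% of all genes did. Epas1, which encodes the form prominent in endothelium and astrocytes (chr17:86753700-86833410, plus strand), was at 95.0, 125 and 115 CPM in control, 160, 175 and 170 CPM in MCAO, and 101, 129 and 111 CPM in hypidone. Hif1a, the gene of the widely expressed form (chr12:73901375-73947530, plus strand), was at 78.6, 84.3 and 74.8 CPM in control, 106, 110 and 94.7 CPM in MCAO, and 80.8, 77.7 and 76.4 CPM in hypidone. For each gene the 3 MCAO libraries were close together and above all others, MCAO 4 included.

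The log2 fold change of Epas1 was 0.59 ± 0.14 with MCAO (adjusted p = 0.0202) and -0.57 ± 0.14 for hypidone against MCAO (adjusted p = 0.0258). That of Hif1a was 0.39 ± 0.10 (adjusted p = 0.0292) and -0.41 ± 0.10 (adjusted p = 0.0287). With MCAO the Epas1 call was lost without control 4, control 6 or MCAO 6 (adjusted p between 0.0635 and 0.0699), and the Hif1a call without control 4, control 6 or any hypidone library (adjusted p between 0.0524 and 0.112). For hypidone against MCAO, Epas1 lost its call without MCAO 6 or any hypidone library (adjusted p between 0.0542 and 0.106), and Hif1a without control 4, control 6, MCAO 6 or any hypidone library (adjusted p between 0.0503 and 0.113). These are RNA levels, and the factors are controlled mainly through protein stability, which was not measured.

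The partner gene Arnt, the ubiquitin ligase gene Vhl and the prolyl hydroxylase genes Egln1 and Egln3 did not pass in either comparison, with log2 fold changes of 0.32, -0.08, 0.11 and -0.30 with MCAO. Egln3, a hydroxylase gene that hypoxia itself induces, was at 9.10, 5.43 and 10.7 CPM in control, 6.26, 7.22 and 7.00 CPM in MCAO, and 9.99, 9.94 and 12.7 CPM in hypidone. Its MCAO values lay within the controls and below all hypidone values, with a log2 fold change of 0.67 ± 0.26 for hypidone against MCAO (adjusted p = 0.0989) that passed without control 5, at 0.68 (adjusted p = 0.0342).

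Genes that hypoxia is known to induce did not move together. Vegfa, which drives vessel growth and permeability (chr17:46016993-46032369, minus strand), fell with MCAO, from 53.2, 39.9 and 54.2 CPM in control to 26.9, 17.0 and 27.4 CPM in MCAO 4, 5 and 6, and was at 39.6, 52.6 and 53.2 CPM in hypidone. All MCAO values were below all others. Vegfa had a log2 fold change of -1.05 ± 0.22 with MCAO (adjusted p = 0.0135), a call lost without control 6 (adjusted p = 0.0532), and 1.03 ± 0.22 for hypidone against MCAO (adjusted p = 0.0168), a call lost without hypidone 7 or hypidone 8 (adjusted p = 0.0679 and 0.0716). Adm, the gene of the vessel-dilating peptide adrenomedullin, had the opposite sign without passing. It was at 3.32, 1.55 and 3.43 CPM in control, 3.58, 10.5 and 7.72 CPM in MCAO, and 2.53, 3.51 and 3.05 CPM in hypidone, so that MCAO 4 was only just above the controls. Its log2 fold change was 1.39 ± 0.44 with MCAO (adjusted p = 0.0524) and -1.26 ± 0.44 for hypidone against MCAO (adjusted p = 0.0765). It passed in both without MCAO 4, at 1.71 (adjusted p = 0.0119) and -1.58 (adjusted p = 0.0186), and in the second without control 5 (adjusted p = 0.0490). Adm also passed in both with DESeq2 (adjusted p = 0.00998 and 0.0227) and with limma voom (adjusted p = 0.00405 and 0.00169). The mitophagy gene Bnip3, Ankrd37 and the stress-response gene Ndrg1 had log2 fold changes of 0.07, -0.39 and 0.01 with MCAO and did not pass.

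Other genes of the same pathways were read from lists chosen by name, with earlier results of these data known. Of 40 further glycolysis and pyruvate genes, 34 were tested, and 3 were higher and 3 lower with MCAO (17.6%, where 20.4% of all genes passed), with a median log2 fold change of 0.01. With hypidone, 1 was higher and 4 were lower than in MCAO (14.7%, where 16.5% of all genes passed, 8.23% higher and 8.28% lower), and of the 4 lower genes 0 passed without hypidone 7 or hypidone 8. Of all genes, 1222 were lower in the main fit and 234 and 233 without those libraries. Slc2a1, which encodes the glucose transporter of the blood-brain barrier and of glia, was at 95.8, 85.8 and 133 CPM in control, 217, 331 and 251 CPM in MCAO, and 127, 134 and 130 CPM in hypidone. All MCAO values were above all others, with a log2 fold change of 1.35 ± 0.20 with MCAO (adjusted p = 0.00518) and -1.03 ± 0.20 for hypidone against MCAO (adjusted p = 0.0126), the latter lost without any of the hypidone libraries (adjusted p between 0.0538 and 0.0585).

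The muscle enolase gene Eno3 and the phosphoglucomutase gene Pgm2 rose by 1.52 ± 0.30 and 1.21 ± 0.24 on the log2 scale with MCAO. Gpd2, the mitochondrial glycerol phosphate dehydrogenase gene, fell by 0.84 ± 0.19, a call lost without MCAO 6 (adjusted p = 0.0763). Tigar, which encodes a phosphatase that lowers glycolytic flux, fell by 0.70 ± 0.18, a call lost without control 4, control 6, MCAO 6 or hypidone 2 (adjusted p between 0.0501 and 0.0927). In a fit of only the control and MCAO libraries the calls of these 4 genes were lost (adjusted p between 0.0529 and 0.0808), and the counts of the list became 1 higher, Slc2a1, and 0 lower. Against MCAO, hypidone libraries had a Pgm2 level lower by 1.33 ± 0.24 on the log2 scale (lost without hypidone 7 or 8, adjusted p = 0.0539 and 0.0537). The log2 fold changes of Slc16a10, Eno3 and the pyruvate dehydrogenase phosphatase gene Pdp1 were -1.54 ± 0.37, -1.02 ± 0.29 and 1.44 ± 0.43. Each of these 3 calls was lost without MCAO 6 or any hypidone library (adjusted p between 0.0514 and 0.157), those of Eno3 and Pdp1 also without control 4, control 6 or MCAO 4 (adjusted p between 0.0513 and 0.0719), and that of Pdp1 without MCAO 5 (adjusted p = 0.0918). Eno3 was -0.70 without MCAO 6.

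Of 40 further hypoxia gene names, 37 were tested. They share Slc2a1 and Pfkfb4 with the list above, and name a single gene both as Ero1l and as Ero1a. With MCAO 12 were higher and 6 lower (48.6%, where 20.4% of all genes passed), with a median log2 fold change of 0.27, and for hypidone against MCAO 5 were higher and 9 lower (37.8%, where 16.5% of all genes passed), with a median of -0.10. The list was chosen with earlier results known, so a share above that of all genes does not measure hypoxia genes at large. The higher count with MCAO fell to 5 in a fit of only control and MCAO, 6 without control 4, 7 without control 6 and 7 without MCAO 6, and the lower count with hypidone fell to 3 without hypidone 2 or hypidone 8, 4 without hypidone 7, 6 without control 6 and 6 without MCAO 6. Counts of all genes fell in the same fits. The 1567 higher with MCAO became 345 in the fit of only control and MCAO. Without control 4, control 6 and MCAO 6 they became 543, 480 and 717. The 1222 lower with hypidone became 250, 234 and 233 without hypidone 2, 7 and 8. Without control 6 and MCAO 6 they became 817 and 341. Among the genes that rose, beside Slc2a1, were Angptl4, which encodes an inhibitor of lipoprotein lipase, and Ddit4, which encodes an inhibitor of the growth kinase mTOR, also known as a glucocorticoid target. Angptl4 was at 1.44 to 2.77 CPM in control, 12.03, 62.5 and 21.9 CPM in MCAO and 2.45 to 3.10 CPM in hypidone, so that every MCAO library was above every other library. Angptl4 rose by 3.92 ± 0.58 and Ddit4 by 1.08 ± 0.18 on the log2 scale.

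The lower genes of the same list with the lowest p were Narf at -0.88 ± 0.12, the mitochondrial adenylate kinase gene Ak4 at -1.68 ± 0.25, the factor-inhibiting hydroxylase gene Hif1an at -0.73 ± 0.12 and the collagen prolyl hydroxylase gene P4ha1 at -1.66 ± 0.28. P4ha1 was at 53.4 to 65.5 CPM in control, 10.5, 26.8 and 18.1 CPM in MCAO and 52.1 to 59.1 CPM in hypidone, with no overlap of MCAO and the others. For hypidone against MCAO, Narf, Hif1an, P4ha1 and Ak4 were higher by 0.78 ± 0.12, 0.76 ± 0.12, 1.59 ± 0.28 and 1.37 ± 0.25. Ddit4, Angptl4 and Hif3a, whose product opposes the other hypoxia-inducible factors, had log2 fold changes of -1.45 ± 0.19, -3.58 ± 0.57 and -1.64 ± 0.24. The list thus held genes that passed in both directions, as did the 42 genes.

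**Figure D5:**
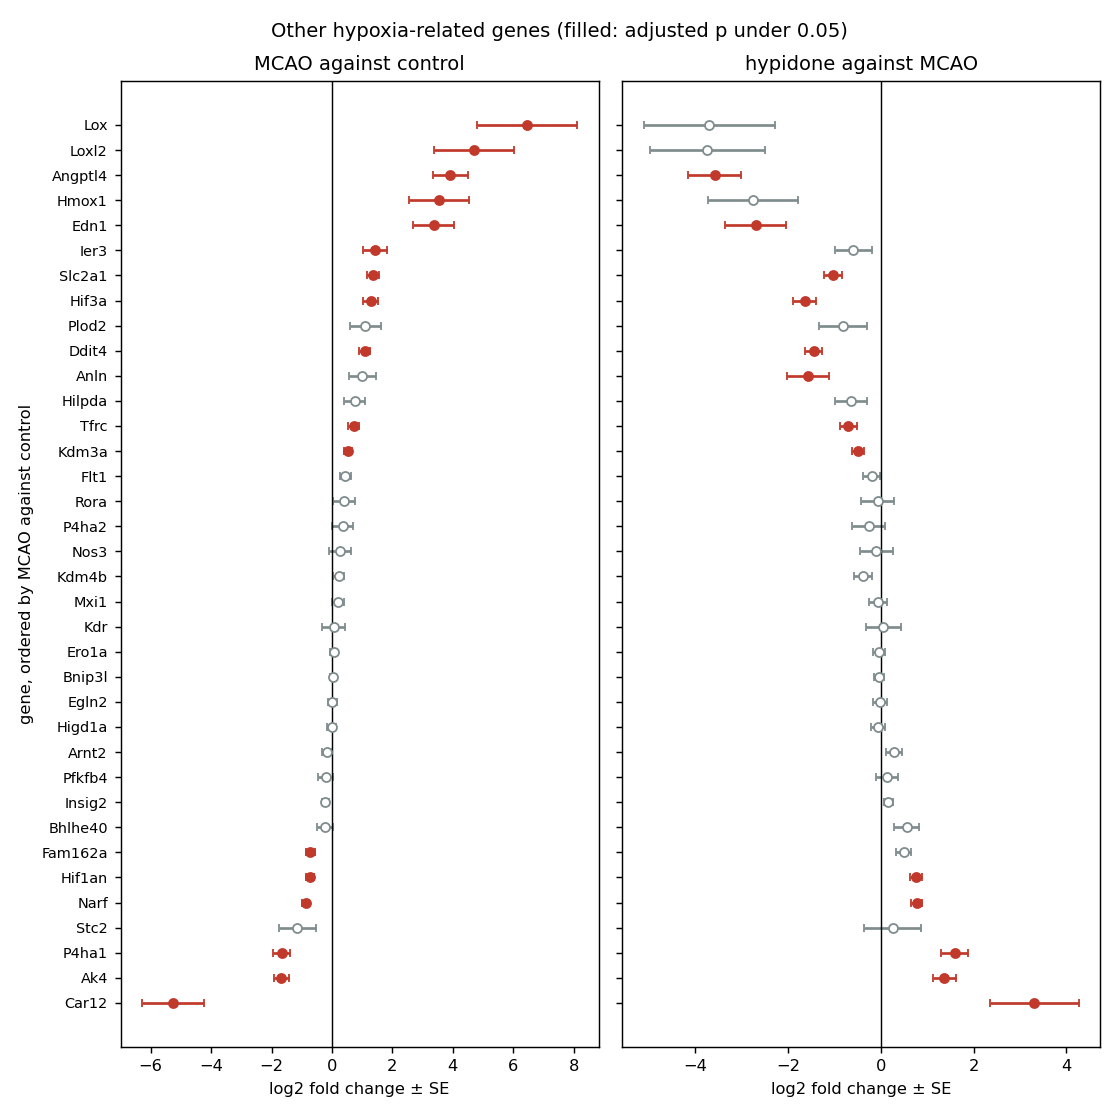
Points give the log2 fold change with its SE for 36 of the tested genes of the further hypoxia list, ordered by MCAO against control on the left, with hypidone against MCAO on the right and filled points for an adjusted p under 0.05. On the left 11 filled points lie above 0 and 6 below, and the MCAO libraries are shared by the panels.

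Hypidone was also compared with control, which asks how treated tissue after surgery differed from untreated tissue. None of the 42 genes passed (edgeR), and none had an unadjusted p under 0.05, where 131 of all 14756 genes had one and 0% passed after adjustment. The 131 are fewer than the share of 0.05 that no difference would give, so this test was conservative here. Its spread was estimated from all 9 libraries, the uneven MCAO libraries included. In a fit of only the hypidone and control libraries, 0 of 14360 genes were higher and 0 lower. An unadjusted p under 0.05 was found for 222 genes with DESeq2 and 618 with limma voom. DESeq2 called 1 gene of all and limma voom 0, none of them a member of the list. The log2 fold changes of the 42 genes ran from -0.30 ± 0.20 for Pfkl to 0.37 ± 0.26 for Egln3, with a median of -0.03, and groups did not overlap for 1 gene, Aldoa, which was lower with hypidone (6.57% of all genes, 3.86% higher and 2.71% lower). Slc16a7 differed by 0.12 ± 0.32, Pdk4 by 0.05 ± 0.28, Ldha by -0.02 ± 0.13 and Vegfa by -0.02 ± 0.21. A p that misses the threshold does not show that treated and control tissue had equal levels.

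The authors' deposited table gave a q under 0.05 with the same direction to 7 of the 8 genes called with MCAO, all but Pfkl, and to all 7 called for hypidone against MCAO. In the authors' deposited table Adm also passed in both comparisons and Egln3 in the second.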

How the data were processed

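Brain RNA was sequenced in 3 groups of 3 libraries, grouped by the treatment labels. Raw gene counts, FPKM (counts divided by the library total and a fixed gene length), and the ratio or fold change with its q-value for each comparison were deposited by the authors. The build mm10 and DESeq2 are named in the submitters' processing notes. The sources used here do not give the aligner, the counting tool or the strand setting. All 9 sample columns matched a title.

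edgeR 4.0.16 (R 4.3.3) kept 14756 of 18138 genes (filterByExpr), scaled by TMM and fitted all 9 libraries with 6 residual degrees of freedom. Two-sided quasi-likelihood F tests were adjusted by Benjamini-Hochberg over all tested genes and called at 0.05. The SE is the log2 fold change over the root of F. Alternatives used limma 3.58.1 and DESeq2 1.42.0. Family shares were compared by exact permutation.

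The 42 genes and all lists were chosen with earlier results of these data known. Values are given for every called gene, for the lowest p in roles without one, and for up to 4 called genes per direction and further list; Adm, Pdk2, Egln3, Mpc2, Slc16a1, Slc16a3 and the shares of Slc16a7 and Slc16a3 were added after their values were seen. A few genes within the rule are not given here. Positions are from GENCODE M21 (mm10).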

Additional observations from a re-analysis of the deposited data

How the results depend on the processing

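Among the 42 genes, the counts of 3 higher and 5 lower with MCAO became 5 and 6 with DESeq2. The genes gained there were Slc16a3, Adm and Eno1. With limma voom and quality weights the counts became 8 and 8, and in a fit of only the groups compared 1 and 2. With the title number as a replicate block, a fit that called 0 of 14489 genes, they became 0 and 0. Among all genes, 1567 higher and 1448 lower became 2409 and 2073 with DESeq2. They became 3645 and 3783 with limma voom, and 345 and 337 with only the groups compared. Nothing in the labels says that the title numbers mark pairs, so they were not taken as pairs. Same-numbered control and MCAO libraries had correlations of their deviations of 0.118, 0.123 and -0.0421, and differently numbered ones -0.151 to 0.124. Deviations from a mean of 3 libraries depend on each other, so these values cannot decide the pairing. For hypidone against MCAO, the 4 higher became 7 with limma voom, and the 3 lower became 5 with DESeq2 and 9 with limma voom. The genes gained with DESeq2 were Pdk2 and Adm. Among all genes, 1215 higher and 1222 lower became 1843 and 2201 with DESeq2, and 3916 and 3715 with limma voom. When each library was left out in turn, the counts ran from 1 to 7 higher and from 3 to 6 lower with MCAO, and from 2 to 5 higher and from 1 to 6 lower for hypidone against MCAO. The counts of all genes ran from 480 to 2357 higher and from 594 to 1918 lower with MCAO. For hypidone against MCAO they ran from 315 to 1752 higher and from 233 to 2123 lower. For the further glycolysis and pyruvate genes, the 3 higher and 3 lower with MCAO became 6 and 3 with DESeq2, 8 and 5 with limma voom and 0 and 0 with the block, and the 1 higher and 4 lower with hypidone became 4 and 5 with DESeq2, 5 and 8 with limma voom and 0 and 3 on either log2 FPKM scale. For the further hypoxia genes, the 12 and 6 with MCAO became 0 and 0 with the block, and the 9 lower with hypidone became 14 with limma voom. For the 42 genes, other scalings and filters moved neither count by over 1.5 times, and no gene called here changed sign under the alternatives run. Of the 42 results for genes named by the rule, all stayed on their side of the threshold under DESeq2 size factors and under library totals. With no filter 1 lost its call, with only the groups compared 10, and with the block 19. Pdk2, added later, passed under library totals for hypidone against MCAO (edgeR, adjusted p = 0.0466). When log2 FPKM (pseudocount 1) was tested with limma, 3 lost their call. They were Pfkl with MCAO (-0.61, adjusted p = 0.0517), and Pdp1 (1.38, adjusted p = 0.0682) and Eno3 (-0.56, adjusted p = 0.0572) for hypidone against MCAO. That scale understates changes of low genes, but Pdp1 and Eno3 also lost their call with pseudocount 0.1. As a share of summed CPM in place of FPKM, which ignores gene length, Slc16a1 differed by 29.3 percentage points with MCAO in place of 16.8. Leaving libraries out of the family shares was chosen after seeing the data. The cause of these changes was not tested, beyond that the smaller fits have fewer libraries. Each of the 42 genes had at least 57 counts in every library.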
